A study of Mus musculus with 3 samples.

Results

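Epas1, which encodes the hypoxia-inducible transcription factor subunit HIF-2α, was followed here across cell groups and embryonic stages. It was 1 of 296 genes counted in place in 3 sagittal sections of whole mouse embryos: 1 section from a wild-type embryo at E15.5, and 2 sections from 2 different wild-type embryos at E9.5. The labels give no strain, sex or litter, and no treatment. RNA was read by MERFISH, in which each gene carries a barcode decoded over rounds of fluorescence imaging, on the Vizgen MERSCOPE platform. The gene was chosen by its high level in endothelial cells of these same sections, so its levels by cell group are described with no test. The level of each cell group was tested between stages. The ratio of endothelial-gated to other cells is not tested at either stage or between them.

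HIF-2α pairs with ARNT and binds hypoxia response elements in the genome. In normal oxygen it is hydroxylated by the EGLN enzymes and degraded through VHL, so the protein is set largely after transcription and the counts below are of RNA alone. In mice Epas1 is known from vascular endothelium, where it takes part in vessel remodelling, and from catecholamine-producing cells of the sympathoadrenal lineage.

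Cells with at least 10 panel counts were kept. The E15.5 section kept 195915 cells of 219525, with 21227345 panel counts and a median of 84. E9.5 section 1 kept 830 of its 1077 cells (68572 counts, median 61) and E9.5 section 2 kept 6334 of its 6835 cells (1034730 counts, median 128). No cell identifier was shared between sections. Epas1 had 41160 counts at E15.5, against 446 and 2096 in E9.5 sections 1 and 2. These were 12.2, 27.2 and 13.6 times the mean of the 19 blank codes, which are barcodes given to no gene, and 4.32, 9.49 and 5.33 times the highest blank code. A count was found in 11.4%, 13.7% and 11.2% of kept cells, and the highest count in 1 cell was 27, 16 and 30. Levels below are Epas1 counts per 1000000 panel counts of the same cells (CPM). Intervals are exact Poisson 95% intervals for levels and exact Clopper-Pearson 95% intervals for shares of cells, and cover counting error only.

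Cells were compared in 4 groups within each section. A cell was endothelial-gated where Pecam1, Cdh5, Kdr, Emcn and Cldn5, genes of endothelial junctions, surface and VEGF signalling, summed to at least 3 counts with at least 2 of them present. Of the remaining cells, those passing the same rule on 9 panel markers of mural cells, the pericytes and smooth muscle around vessels, were mural-gated, those passing it on 4 panel markers of mesenchyme were mesenchyme-gated, and the rest are called other cells. In the E15.5 section all 5 gate genes were read in endothelial-gated cells, Cdh5 in 84.1% of them, Pecam1 in 65.9% and Emcn in 33.7%. In E9.5 section 1 the gate passed only 12 cells, of which 11 held Cldn5 but 3 held Cdh5 and 2 held Pecam1, so the endothelial label rests there mainly on 1 gene. In E9.5 section 2 it passed 316 cells, of which 73.4% held Cldn5, 60.4% Cdh5 and 51.3% Pecam1.

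At E15.5 Epas1 stood highest in the endothelial-gated cells by a wide margin. Its level was 8446 CPM (8321 to 8572) in 11711 endothelial-gated cells, 2070 (2005 to 2135) in 9642 mural-gated cells, 784 (759 to 810) in 28899 mesenchyme-gated cells and 1266 (1247 to 1286) in 145663 other cells. The mean blank code in the same 4 groups lay between 148 and 172 CPM. Endothelial-gated cells made up 5.98% of the section and held 42.8% of its Epas1 counts. The level in endothelial-gated cells was 6.67 times that in other cells (6.53 to 6.81), 4.08 times that in mural-gated cells and 10.8 times that in mesenchyme-gated cells. The counting intervals of the 4 groups did not overlap.

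Of the E15.5 endothelial-gated cells 53.8% held at least 1 Epas1 count, against 20.4% of mural-gated, 9.84% of mesenchyme-gated and 7.73% of other cells. Gated cells were deeper, with a median of 154 panel counts against 65 in other cells. With every cell thinned to 50 panel counts, which left out 683 endothelial-gated and 57301 other cells as too shallow, the shares were 30.4% of endothelial-gated and 5.27% of other cells. Endothelial-gated cells also stood higher in each of 5 classes of depth. Among cells of 100 to 199 panel counts the level was 9261 CPM in endothelial-gated cells and 1147 in all other kept cells, and among those of 400 or more it was 6186 and 1220. Among the 291 panel genes outside the gate, 39 (13.4%) were at least 2-fold higher in endothelial-gated than in all other kept cells of this section, and Epas1, at 2.78 on the log2 scale, ranked 3rd after Aplnr, the apelin receptor, and Ptprb, the endothelial phosphatase VE-PTP.

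The E9.5 sections had another order. Epas1 in E9.5 section 1 reached 15755 CPM (13270 to 18570) in 43 mesenchyme-gated cells, 10278 (8275 to 12619) in 54 mural-gated cells, 9392 (5471 to 15038) in the 12 endothelial-gated cells and 4009 (3467 to 4611) in 721 other cells. The interval of the endothelial-gated cells covered the level of the mural-gated cells. Of the 17 Epas1 counts in these 12 cells, all lay in 3 cells. In E9.5 section 2 the level was 3788 (3386 to 4224) in 316 endothelial-gated cells, 2529 (2357 to 2711) in 1125 mural-gated cells, 1873 (1595 to 2186) in 331 mesenchyme-gated cells and 1485 (1385 to 1591) in 4562 other cells. Endothelial-gated cells thus led in E9.5 section 2, at 2.55 times the level of other cells (2.23 to 2.90), and did not lead in E9.5 section 1, where the ratio was 2.34 (1.34 to 3.85). They held 3.81% of the Epas1 counts of E9.5 section 1 and 15.4% of those of E9.5 section 2. The lead in E9.5 section 2 was not seen at every depth. Gated cells stood above all other kept cells in each depth class from 50 to 400 panel counts. Among cells of 400 or more they had 2700 CPM against 2997, and the 8 gated cells under 50 held 0 counts. Of 291 genes outside the gate 29 (9.97%) were at least 2-fold higher in endothelial-gated than in all other kept cells of E9.5 section 2, and Epas1, at 1.02 on the log2 scale, ranked 27th. In E9.5 section 1, with 12 gated cells, 136 of 289 genes (47.1%) passed the same size and Epas1, at 1.46-fold, did not.

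**Figure D1:**
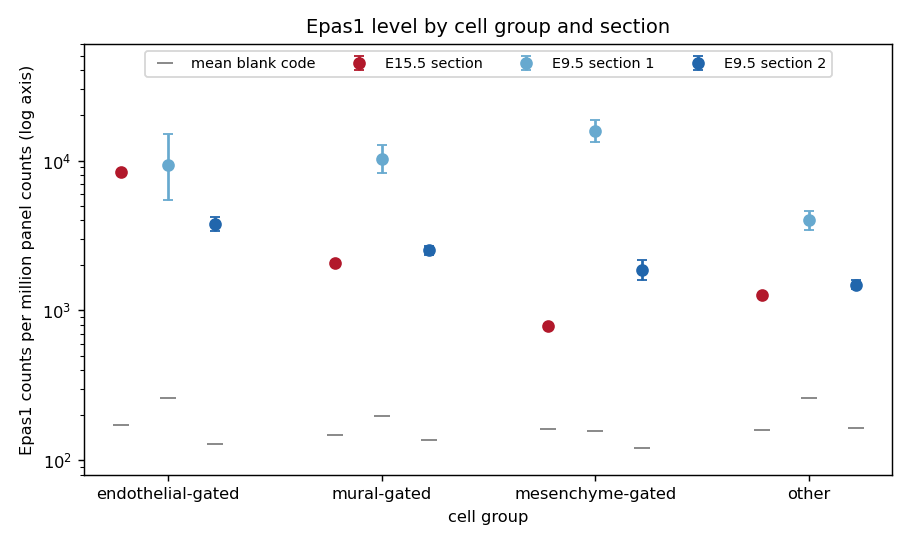
Epas1 level in CPM (log axis) in endothelial-gated, mural-gated, mesenchyme-gated and other cells, for the E15.5 section and the 2 E9.5 sections. Points are levels, bars are exact Poisson 95% intervals, and grey dashes are the mean blank code in the same cells. At E15.5 the endothelial-gated cells stand at 8446, above the other 3 groups, while in E9.5 section 1 the mesenchyme-gated cells stand highest at 15755.

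The plot of Epas1 counts by position shows where these counts lay. In the E15.5 section dark cells traced thin lines in the upper part of the section and formed several dense patches, with single counts spread over most of the rest. In E9.5 section 1 nearly all counts lay in a strip along the upper left edge of the tissue. In E9.5 section 2 they lay in a curved band along the edge of an inner structure and in 1 compact patch.

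**Figure D2:**
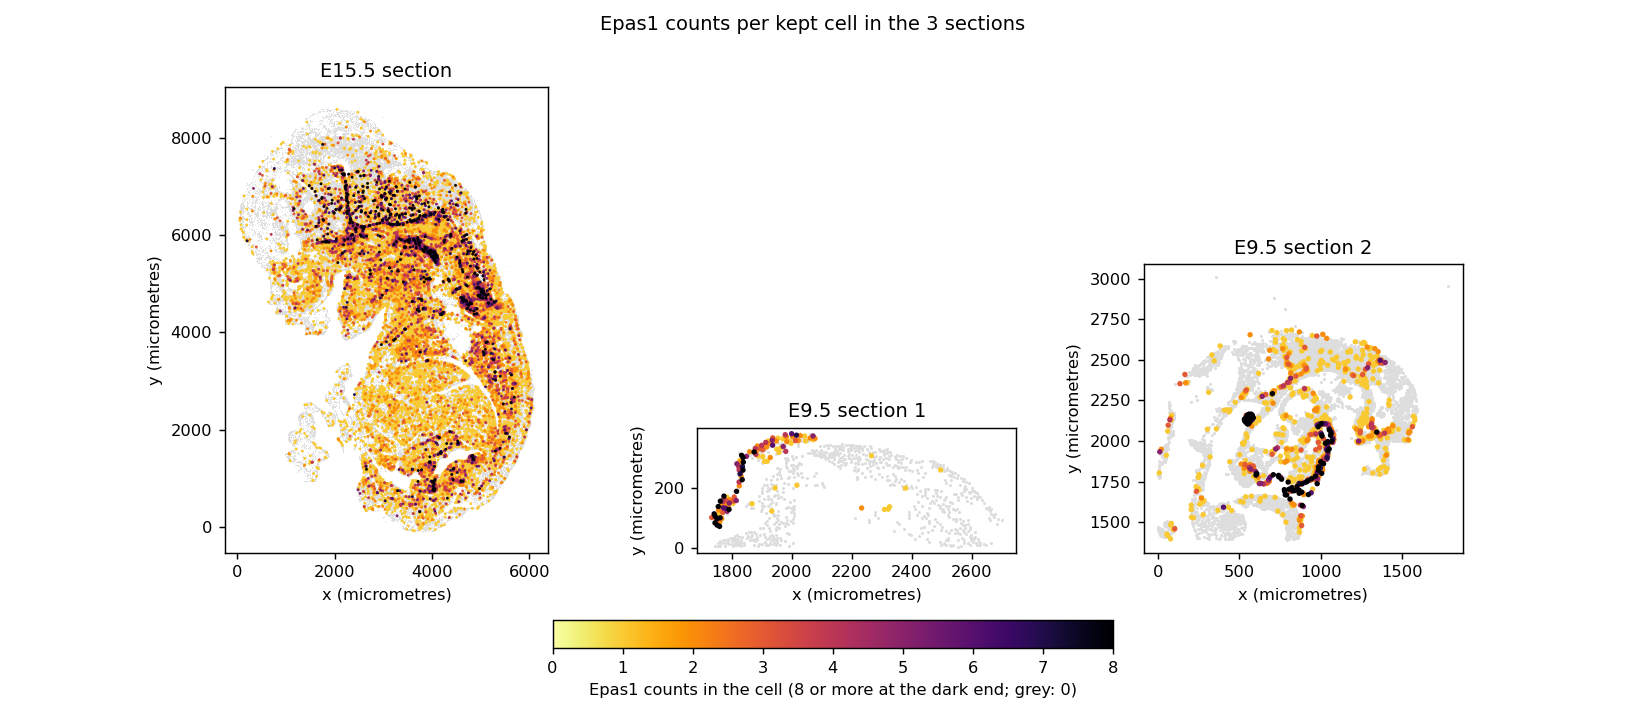
Each point is the centre of a kept cell, drawn at its x and y position in micrometres, for the E15.5 section, E9.5 section 1 and E9.5 section 2, each at its own scale. Colour gives the Epas1 counts in the cell, from 0 (grey) to 8 or more (dark). Counts run along lines and patches at E15.5 and are gathered in a strip, a band and a patch at E9.5.

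Clusters of cells were then built from the panel without Epas1, 29 in the E15.5 section and 27 in the E9.5 sections jointly. At E15.5 the clusters spanned 343 to 18960 CPM. Highest was cluster 23 (2267 cells), led by Cldn5, Rgs5 and Slco1c1, with Epas1 at 18960 (18476 to 19454) and in 65.7% of its cells. Slco1c1, a thyroxine transporter, and Mfsd2a, a lipid transporter, which were both among its 10 leading genes, are known from vessels of the brain barrier, Rgs5 and Vtn from pericytes. The endothelial-like cluster 7 (9331 cells), led by Aplnr, Pecam1 and Cdh5, followed at 9551 (9380 to 9725). Together these clusters held 14.1% and 28.6% of the section's Epas1 counts.

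A further 5 of the 29 clusters stood above 4000 CPM, and at most 29.1% of the cells of each were endothelial-gated. Cluster 21 (2524 cells) was led by Hand2, a transcription factor of heart and sympathetic development, Rgs4, Ccnd1 and, further down, the neuronal gene Stmn2. It had an Epas1 level of 8473 (8206 to 8747), a count in 54.4% of its cells, and 9.23% of all Epas1 counts, although 1.98% of its cells were endothelial-gated. Its cells outside the gate stood at 8577. Cluster 28 (190 cells), led by Slco1c1 and the carbonic anhydrase Car14, stood at 6172 (5063 to 7452). Cluster 24 (1614 cells), led by the sodium channel Scn7a, Rgs4 and Egfl8, stood at 5685 (5434 to 5944), and its interval overlapped that of cluster 28.

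The other 2 high clusters were led by transcription factors of heart and visceral mesoderm. Cluster 16 (3339 cells), led by Gata5, Foxf1 and Ednra, had a level of 4451 (4246 to 4663). There the endothelial-gated cells, 29.1% of the cluster, stood at 7770 and the others at 2301. The heart-like cluster 15 (3886 cells), led by Gata4, Tbx20 and Gja5, had a level of 4266 (4031 to 4511), and its interval overlapped that of cluster 16. Below these lay cluster 3 (21078 cells), led by the carbonic anhydrase Car2, at 2309. At the low end were neuron-like clusters. Cluster 10 had 385 CPM against 421 for its highest blank code, and cluster 1 (27030 cells), led by Scn3a and Tubb2b, had 343 against 454.

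Within E15.5 clusters, endothelial-gated cells stood above the rest of the cluster in most of the cases named. The level was 20435 in 1418 gated cells of cluster 23 and 13180 in its 849 other cells, and 10295 in 5371 gated cells of cluster 7 and 7709 in its 3960 other cells. Cluster 21 ran the other way, with 4960 in 50 gated cells and 8577 in 2474 others.

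The 3 highest E9.5 clusters were not endothelial-like by the naming rule. Cluster 26, led by the podoplanin gene Pdpn, Sat1 and Gata4, held 30 cells, all of them in E9.5 section 2 within a patch of 55.5 by 61.1 micrometres. Its level was 123988 CPM (112104 to 136788), with a median of 13 Epas1 counts in each cell. Cdh5 was among its 10 leading genes, and 3 of its 30 cells were endothelial-gated. Cluster 17, led by Col15a1, Rgs5 and Ackr3, stood at 31072 in 31 cells of E9.5 section 1 and at 14394 in 153 cells of E9.5 section 2. Cluster 14, led by Dkk2, Col1a2 and Dcn, stood at 14613 in 72 cells of E9.5 section 1 and at 10837 in 123 cells of E9.5 section 2. The 5 gate genes were not among the leading genes of clusters 17 and 14, and 2.72% and 3.59% of their cells were endothelial-gated. At E9.5 clusters with few gated cells thus stood highest. In cluster 26 the low share does not mean that gate genes were absent. It held 62 Cdh5 counts in 3210 panel counts, with 1 count of Pecam1 and 1 of Kdr, and the gate requires 2 genes.

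The labels call the material whole embryo and name no structures. Whether these cells lie in the embryo itself or in tissue attached to it was not tested, and this bears on each E9.5 level and stage difference below. The 3 clusters were 12.4% of the kept cells of E9.5 section 1 with 91.7% of its Epas1 counts, and 4.83% of the cells of E9.5 section 2 with 65.8% of its counts. In all other clusters the level was 766 (539 to 1056) in E9.5 section 1 and 750 (696 to 807) in E9.5 section 2, with overlapping intervals, against 6504 and 2026 in all kept cells. Of the 17 Epas1 counts in endothelial-gated cells of E9.5 section 1, every one lay in the 3 cells that belong to these clusters. The other 9 gated cells held 0 counts. For them 3 counts, the limit that a count of 0 allows, would be 2994 CPM, and the exact Poisson interval reaches 3682. In E9.5 section 2 the endothelial-gated cells outside the 3 clusters stood at 2760 (2409 to 3148), which was 5.12 times the level of the other cells outside them.

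Endothelial-like by the naming rule were 2 E9.5 clusters. Cluster 19 (153 cells), led by the arterial genes Dll4, a Notch ligand, and Gja5, a connexin, together with Cdh5, had an Epas1 level of 6293 (5417 to 7271) and a count in 49.7% of its cells. Cluster 23 of this stage (135 cells), led by Aplnr, Cdh5 and Cldn5, had 1724 (1284 to 2267) and a count in 25.9% of its cells. The intervals of both did not overlap. Nearly all of these cells, 147 of the 153 and 130 of the 135, came from E9.5 section 2.

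**Figure D3:**
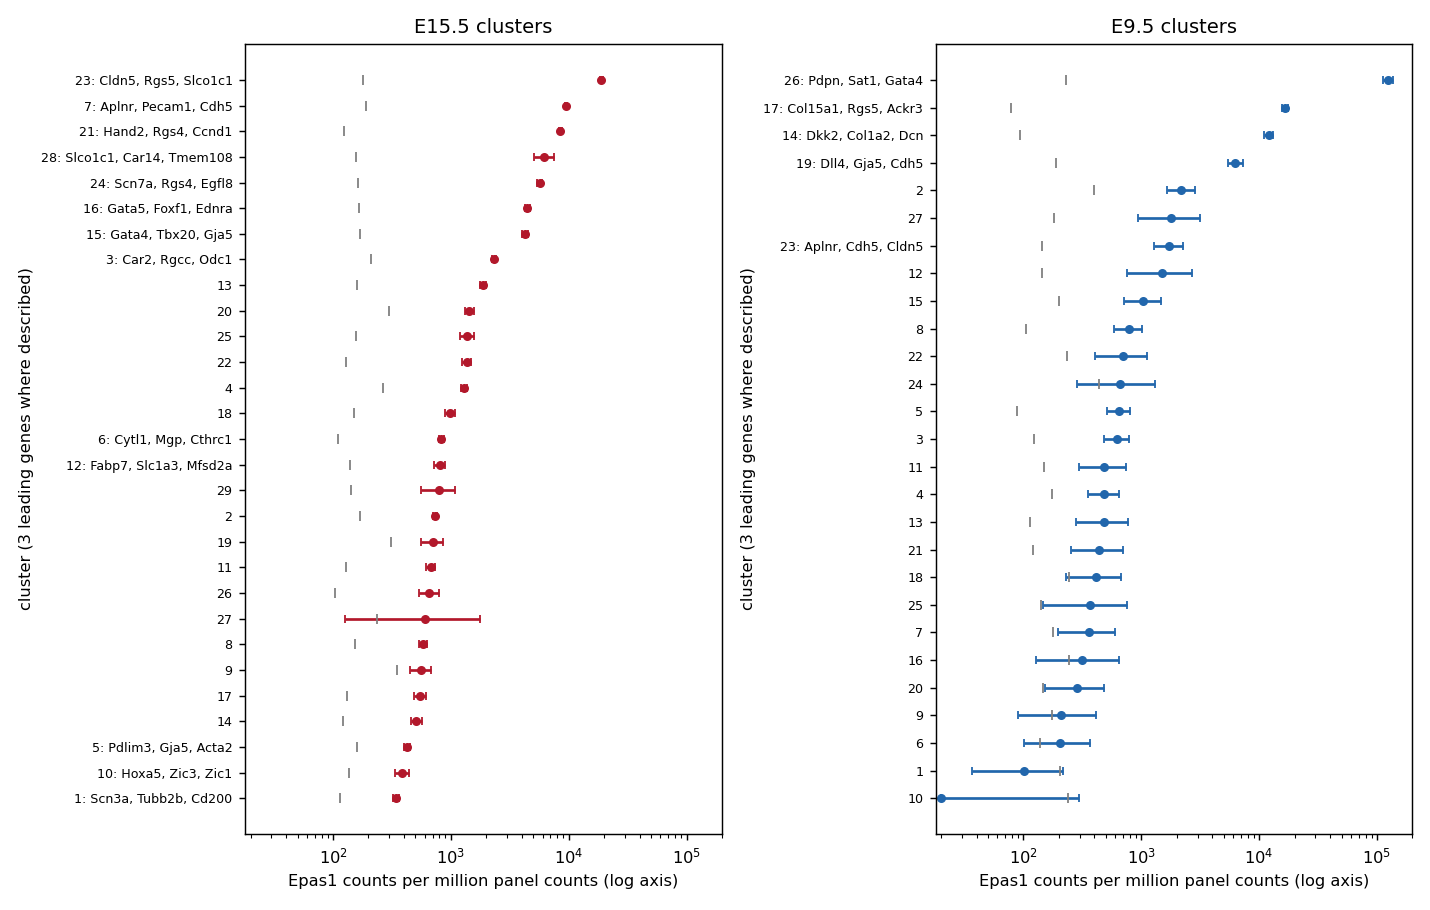
Epas1 level in CPM (log axis) in each cluster, with exact Poisson 95% intervals, for the 29 clusters of the E15.5 section (left) and the 27 clusters of the E9.5 sections (right). Each row gives the cluster's number, with 3 leading genes for clusters described in the text, grey ticks are the mean blank code, and values below 20 are drawn at 20. The top row at E15.5 is the Cldn5, Rgs5 and Slco1c1 cluster at 18960, and the top row at E9.5 the Pdpn, Sat1 and Gata4 cluster at 123988.

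Among endothelial-gated cells at E15.5 that passed a single subtype list, Epas1 was highest in arterial and lowest in lymphatic cells. Cells were put in a vessel subtype where they passed its marker list and no other. Arterial cells, by genes such as Dll4, Gja4 and Gja5, had a level of 12677 (12105 to 13268) in 925 cells, or 1.56 times that of the other endothelial-gated cells. Lymphatic cells, by genes such as Prox1, the regulator of lymphatic identity, and Lyve1, had 2174 (1445 to 3142) in 94 cells, or 0.256 times. Both intervals stood clear of the other named lists, narrowly so for the lipid-handling list, whose upper bound of 12101 lay just under the arterial interval.

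Between them the subtypes differed less. Lipid-handling capillary cells, by genes such as Gpihbp1 and Cd36, had 9682 (45 cells), venous cells, by Nr2f2, Nrp2 and Aplnr, 8974 (1679 cells), and brain-type cells, by genes such as Slco1c1 and Mfsd2a, 8690 (1311 cells). The intervals of each overlapped those of its neighbour. The brain list also holds Itm2a, which was not higher in gated than in all other kept cells, at -0.47 on the log2 scale. Passing this list thus does not by itself mark a brain vessel. Gated cells of cluster 23, which had genes of brain barrier vessels among its leading genes, stood at 20435. Liver sinusoidal cells, by genes such as Stab2 and Oit3, had 6989 (74 cells), lung-type cells 5685 (45 cells) and endocardial cells, by genes such as Npr3 and Tbx20, 5522 (158 cells), again with overlapping intervals. Most gated cells fitted no single list: 4526 passed several lists, with a level of 8353, and 2854 passed none, with 6647. Giving cells of several lists to the one with the most counts put the arterial ratio at 1.37, the brain ratio at 1.25 and the lymphatic ratio at 0.163. With other lists allowed, so that a cell could count in several, the arterial lead was small. Arterial cells then had 9302 (9099 to 9508, 3660 cells) and brain-type cells 8940 (8755 to 9128, 4247 cells), with overlapping intervals. Venous cells had 8559 (5075 cells), and lymphatic cells were still lowest at 3206 (765 cells).

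At E9.5 only E9.5 section 2 had subtypes of at least 20 cells. Its 29 arterial cells had 9418 CPM (6483 to 13226) and its 30 venous cells 2007 (963 to 3691), in the same order as at E15.5. A further 29 gated cells that passed no list had 20463, on 53 counts held by 20.7% of those cells. Most gated cells of this section, 214, passed several lists. With other lists allowed, arterial cells had 3699 (3240 to 4206, 202 cells) and venous cells 3032 (2619 to 3491, 204 cells). These intervals overlapped, so the arterial lead was then small.

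Mural genes went with the Epas1 level of gated cells. In the E15.5 section the level was 11968 (11710 to 12230) in the 2875 endothelial-gated cells that also passed the mural rule. It was 5742 (5587 to 5900) in the 3879 that also passed the mesenchyme rule, and 8282 (8086 to 8481) in the 6133 that passed neither. Among mural cells outside the endothelial gate, the 2843 that passed the pericyte list alone had 4134 (3958 to 4316) and the 1782 that passed the smooth muscle list alone had 1067 (960 to 1182). Macrophage-gated cells outside the endothelial gate had 920 (839 to 1007), below the other cells of the section. Gated cells with 2 or more counts of mitotic genes had 7515, and those with none 9573. The former were deeper, with a median of 190 panel counts against 121, and the level of gated cells was lower in deeper cells. The part of depth in this difference was not tested.

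The surroundings of E15.5 endothelial-gated cells also went with their Epas1 level. Each cell was given the most frequent cluster among its 20 nearest cells outside the gate, within 100 micrometres. The level was 16993 (15287 to 18837) in 122 cells beside cluster 12, which was led by the radial glia genes Fabp7 and Slc1a3, and 15563 (14955 to 16189) in 956 cells beside the neuron-like cluster 1. It was 13307 in 190 cells beside the neuron-like cluster 10. At the other end stood 5054 (4715 to 5410) in 763 cells beside cluster 5, led by Pdlim3, Gja5 and Acta2, and 4902 (3988 to 5962) in 105 cells beside cluster 6, led by the cartilage gene Cytl1. The intervals beside the neural clusters 12, 1 and 10 lay above those beside clusters 5 and 6.

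The clusters around the highest vessels held little Epas1 themselves. Cells of clusters 12, 1 and 10 outside the gate had 620, 331 and 338 CPM. The share of gated cells that also passed the mural rule was 46.7% beside cluster 12, 40.4% beside cluster 1 and 9.52% beside cluster 6. It did not follow the Epas1 level throughout, with 61.1% beside cluster 14, where the level was 5655, and 3.02% beside cluster 3, where it was 8588. Among gated cells that did not pass the mural rule the levels were 11043 beside cluster 12, 8953 beside cluster 1 and 4683 beside cluster 6. The part of the mural share in these levels was not tested.

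**Figure D4:**
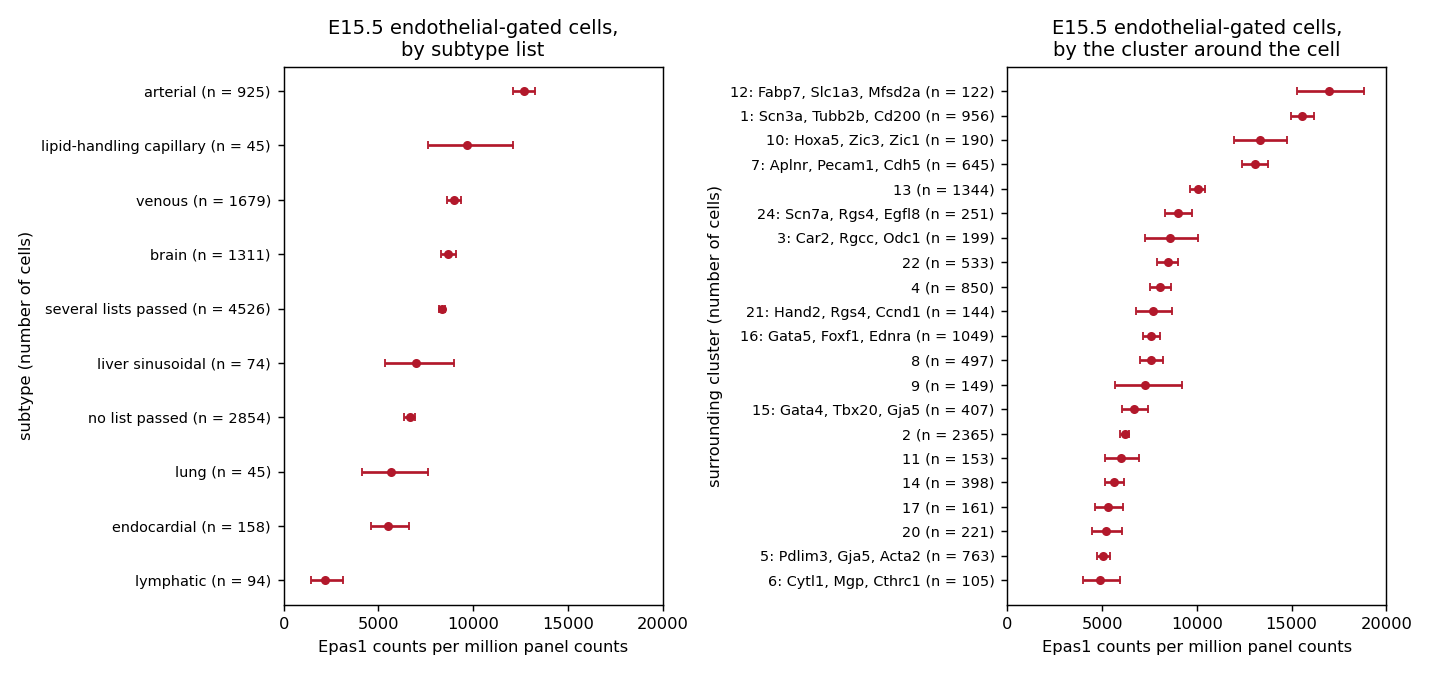
Epas1 level in CPM, with exact Poisson 95% intervals, in endothelial-gated cells of the E15.5 section by vessel subtype list (left) and by the most frequent cluster among their nearest cells outside the gate (right). Arterial cells stand highest on the left at 12677 and lymphatic cells lowest at 2174, and cells beside the Fabp7 cluster stand highest on the right at 16993.

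Across 216 squares of 200 micrometres with at least 20 endothelial-gated cells each, 8451 cells in all, the Epas1 level of those cells ran from 1349 to 23881 CPM, with a median of 7324 and quartiles of 5222 and 9794. The genes whose levels followed it most closely over the squares were Rgs5, a pericyte gene, with a Pearson correlation of 0.564, the amino acid transporter gene Slc7a5 with 0.473, and Vtn, Slco1c1, Tubb2b, Slc7a1, Far2 and Stmn2 with 0.406 to 0.438. Over the 29 clusters of the section the closest were Ptprb with 0.706, Aplnr with 0.578, Clec14a with 0.575 and Acvrl1, a BMP receptor of endothelium, with 0.549, then Heyl, Tagln2, Col4a1 and Depp1. Among the least like were Npm1 with -0.377 and Cnbp with -0.315. Squares and clusters come from 1 section and share its library and depth, so these correlations are descriptions. Over the 27 E9.5 clusters Ptprb had 0.503 but Acvrl1 -0.261 and Heyl -0.456.

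Outside the gate, the Epas1 level of E15.5 cells was higher close to gated cells. It was 2530 (2450 to 2611) in cells centred within 10 micrometres of an endothelial-gated centre, 1422 between 10 and 20, 972 between 20 and 40, 1055 between 40 and 80 and 1069 beyond 80 micrometres. Cdh5, one of the gate genes, moved the same way but further, with 3790 within 10 micrometres and 470 beyond 80. From within 10 to beyond 80 micrometres the other gate genes and Ptprb fell less than Epas1 in relative terms. Over the same distances Cldn5 went from 1080 to 503, Pecam1 from 887 to 431, Kdr from 967 to 580, Emcn from 606 to 581 and Ptprb from 254 to 171. Between 40 and 80 micrometres Pecam1, at 316, had fallen further than Epas1 in relative terms. Cells outside the gate hold few counts of gate genes by definition, which limits this comparison. The neuron-like cluster 1 had an Epas1 level of 1316 within 10 micrometres and 192 beyond 80. Its mean blank code stood between 108 and 136. Counts that cross drawn cell borders and cells that express the gene near vessels cannot be told apart by distance alone.

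Cluster 21 did not show this decline. Its cells outside the gate had 6363 (5398 to 7451) within 10 micrometres, 6476 between 10 and 20, 8690 (8259 to 9136) between 20 and 40 and 10021 (9521 to 10540) between 40 and 80 micrometres of a gated centre. Cells of cluster 23 outside the gate stayed between 12302 and 15036 at every distance, and those of cluster 3 between 2052 and 3494.

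In the E9.5 sections the level followed distance differently. In E9.5 section 2 it was 3017, 2159, 1721, 2199 and 863 over the same 5 distances. In E9.5 section 1 it was 0 counts in 10 cells within 10 micrometres, then 4030, 6288, 6522 and 7063, so it was higher away from the few gated cells. Cells of cluster 17 lay a median of 54.5 micrometres from a gated centre in E9.5 section 1 and 39.9 in E9.5 section 2.

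**Figure D5:**
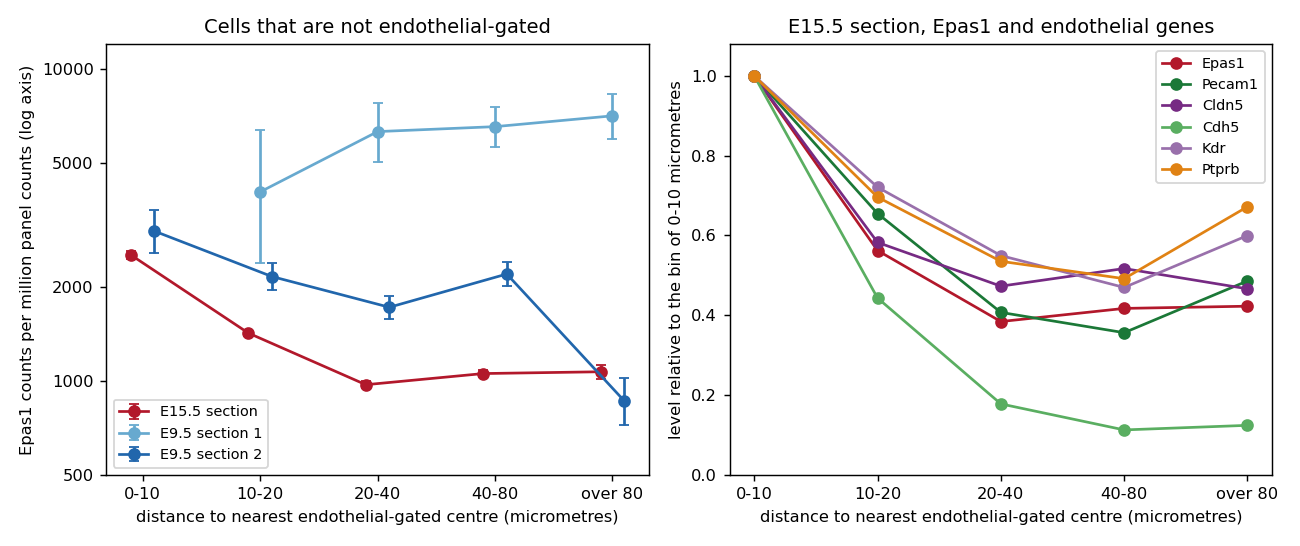
Left, Epas1 level in CPM (log axis) in cells outside the endothelial gate, by distance to the nearest endothelial-gated centre in micrometres, for the E15.5 section and both E9.5 sections, with exact Poisson 95% intervals; the first bin of E9.5 section 1, with 0 counts, is not drawn. Right, Epas1 and 5 endothelial genes of the E15.5 section, each relative to its level within 10 micrometres. At E15.5 Epas1 stands at 2530 within 10 and at 972 at 20 to 40 micrometres, while E9.5 section 1 runs the other way.

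Stage was tested on raw counts summed per section with edgeR's quasi-likelihood test, 1 section at E15.5 against 2 at E9.5, fitted on all 296 genes. The spread comes from the 2 E9.5 sections alone, and the lone E15.5 section is assumed to vary like them. That spread is pooled over the genes of each fit, wholly so except in mural-gated cells. The SEs are derived from the test statistic and do not measure the spread of Epas1 by itself. An exact permutation over 3 sections cannot go below p = 0.333. Imaging run and stage cannot be told apart.

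Over all kept cells Epas1 stood at 1939 CPM in the E15.5 section, and at 6504 and 2026 in E9.5 sections 1 and 2. The E15.5 section lay below both E9.5 sections, but close to the second. The log2 difference of E15.5 minus E9.5 was -1.11 ± 0.80 (SE), with an adjusted p of 0.445 in edgeR's test, so Epas1 was not called. Of the 296 genes 44 (14.9%) were, 28 higher (9.46%) and 16 lower (5.41%) at E15.5. The difference was -0.06 without E9.5 section 1 and -1.75 without E9.5 section 2. Without the E9.5 cells of clusters 14, 17 and 26 it turned to 1.50, with an adjusted p of 0.543.

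In endothelial-gated cells the level was 8446 in the E15.5 section, against 9392 and 3788 in the E9.5 sections, so the E15.5 value lay between them. The log2 difference was 0.59 ± 1.10 (SE), with an adjusted p of 0.948 in edgeR's test. No gene was called in these cells by edgeR (0%), 25 had an unadjusted p under 0.05, and DESeq2 called 0. The difference was 1.15 without E9.5 section 1 and -0.19 without E9.5 section 2, so its sign turned when section 2 was left out. Without the E9.5 cells of clusters 14, 17 and 26 it was 2.36, with an adjusted p of 0.870. It was -0.022 without the E9.5 cells in areas of low Gnas, a gene read in nearly every kind of cell.

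In the other 3 groups the fitted difference was below 0 with all cells, with no call for Epas1. In mesenchyme-gated cells the level was 784 at E15.5, against 15755 and 1873 at E9.5, a log2 difference of -3.77 ± 1.84 (SE) with an adjusted p of 0.720 in edgeR's test. It was -1.26 without E9.5 section 1. In mural-gated cells the level was 2070 at E15.5, against 10278 and 2529 at E9.5, a log2 difference of -1.51 ± 1.18 (SE) with an adjusted p of 0.658 in edgeR's test. It was -0.29 without E9.5 section 1, and without the E9.5 cells of clusters 14, 17 and 26 it turned to 2.49, with an adjusted p of 0.970. In other cells it was 1266 at E15.5, against 4009 and 1485 at E9.5, a log2 difference of -0.91 ± 0.86 (SE) with an adjusted p of 0.560. It was -0.23 without E9.5 section 1 and turned to 1.10 without those 3 clusters, with an adjusted p of 0.511. With all cells, the E15.5 level of each of the 3 groups lay below both E9.5 levels. In other cells edgeR called 41 genes (13.9%), 28 higher (9.46%) and 13 lower (4.39%). It called 0 (0%) in mesenchyme-gated and mural-gated cells, where 19 and 34 had an unadjusted p under 0.05 and DESeq2 called 1 and 5.

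The ratio of endothelial-gated to all other kept cells within a section was 6.86 at E15.5, against 1.46 and 2.03 at E9.5. The difference of this ratio between stages, an interaction fitted on endothelial and other sums of each section and blocked by section, was 2.09 ± 0.64 (SE) on the log2 scale for Epas1. It uses the endothelial levels by which the gene was chosen and is a description, with no test. Over the 296 genes edgeR called 3 (1.01%), 2 higher (0.676%) and 1 lower (0.338%). No verdict on Epas1 is drawn from this fit. The difference for Epas1 was 1.13 without cells passing several gates and 1.37 without the E9.5 cells of clusters 14, 17 and 26.

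The E9.5 tissue was uneven in another gene. Of the 830 kept cells of E9.5 section 1, 416 lay in areas of low Gnas, under 10000 CPM of Gnas over the 30 nearest cells. Epas1 stood there at 298 CPM, against 10501 in the rest of that section. In such areas of E9.5 section 2 it stood at 746 in 2830 cells, against 2771 in the rest, and in the E15.5 section 769 cells lay in such areas. Of clusters 17 and 14, 5.98% and 5.13% of cells lay in areas of low Gnas. The part of these areas in the difference between stages was not tested beyond leaving them out.

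Genes known to respond to hypoxia or to HIF-2α were read beside Epas1. Of 39 genes of that list 12 were in the panel: Kdr, Slc2a1, Edn1, Cxcl12, Cxcr4, Ackr3, Igfbp3, Lox, Bnip3, Ccnd1, Dll4 and Cdh5. In the E15.5 section Cdh5, Kdr and Dll4 were higher in endothelial-gated than in all other kept cells by 3.87, 3.74 and 2.77 on the log2 scale, although Cdh5 and Kdr define the gate. Edn1, the endothelin gene, was higher by 1.28. Slc2a1, the glucose transporter of hypoxic cells and brain vessels, was at 0.67, Bnip3, a mitophagy gene, at -0.56, and Lox, a collagen cross-linking enzyme, at -0.05.

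Between stages 2 of the 12 genes passed edgeR's test over all kept cells, against 14.9% of all genes tested. Lox rose, with 3107 CPM after TMM scaling at E15.5 against 515 and 322 at E9.5, a log2 difference of 2.91 ± 0.96 (SE) with an adjusted p of 0.0265. Slc2a1 fell, with 214 at E15.5 against 3392 and 1600 at E9.5, a log2 difference of -3.54 ± 1.12 (SE) with an adjusted p of 0.0264 in edgeR's test. The E15.5 value lay outside both E9.5 values for either gene. The other 10 did not pass, and the median log2 difference of the 12 was -0.51, against -0.15 over all genes. In endothelial-gated cells 0 of the 12 passed, and their median was 0.27, against 0.18 over all genes.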

How the data were processed

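The deposited tables hold whole-number counts per segmented cell for 296 genes and 19 blank codes, and, per the file headers, the centre and volume of each cell. Hybridisation, imaging, segmentation and decoding were done on the MERSCOPE platform, per the labels. Which settings the segmentation used is not given in the sources used. The deposited volume column was read as a signal and used only in an alternative scaling, and positions, an unscaled unit in the authors' tables (other), were read as micrometres. Scanpy and Seurat are listed in the submitters' processing notes without a version. No gene coordinates are printed, since no genome build is named.

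Gates, levels and distances were computed from the counts with Python 3.11.15. No doublet caller was run, since cells come from segmentation. Clusters were built without Epas1, from log-scaled counts, 30 principal components and 15 neighbours, with the Leiden method at a resolution of 1 (leidenalg 0.10.2), on the E15.5 section alone and the E9.5 sections together. Clusters are named, ending in -like, only where at least 3 listed markers were 2-fold higher on at least 20 counts. At least 2 markers of the list also had to be among the cluster's 10 leading genes, more than from any other list. A cluster with markers of several lists can thus stay unnamed. Genes whose counts over the sections reached 30 were tested with edgeR 4.0.16 (quasi-likelihood, TMM, Benjamini-Hochberg, called under 0.05), and DESeq2 1.42.0 was an alternative. On simulated counts for all kept cells the test called 75% of genes changed by 2 on the log2 scale, and for endothelial-gated cells 85%. The simulation gave every gene the same preset spread, which was not estimated from these sections. These shares therefore do not give the power of the tests on the real counts.

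The gene, the gates and all gene lists were chosen with earlier results of these data known. Named genes are Epas1, the gate genes, the panel members of the hypoxia list, the 8 most and 3 least like Epas1 over E15.5 clusters, and the 8 most like it over squares. Genes in both sets needed at least 500 counts. One least like gene and a few leading genes of clusters are not reported here. The interaction was planned as a test and is given as a description, since it uses the endothelial levels by which the gene was chosen. The alternatives were other gates, other scalings, other limits on counts and volume per cell, and leaving out each E9.5 section.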

Additional observations from a re-analysis of the deposited data

Results flagged for a closer look

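The ratio of Epas1 in mesenchyme-gated over other cells lay below 1 at E15.5, at 0.619 (0.597 to 0.642), and above 1 in both sections at E9.5, at 3.93 (3.14 to 4.90) in E9.5 section 1 and 1.26 (1.06 to 1.50) in E9.5 section 2. Every section of one stage thus lay on one side and every section of the other stage on the opposite side, with 1 and 2 sections, and this difference was not tested. In E9.5 section 1 all 43 mesenchyme-gated cells belonged to clusters 14 and 17, and in E9.5 section 2 mesenchyme-gated cells outside clusters 14, 17 and 26 stood at 482 CPM, against 539 in other cells outside them.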

How the results depend on the processing

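With 1 section at E15.5 and few cells at E9.5, Epas1 passed the threshold between stages in no cell group under any alternative run, with adjusted p no lower than 0.111 over the 5 groups and 0.870 in endothelial-gated cells. The settings that left out areas of low Gnas or clusters 14, 17 and 26 were chosen after seeing the data. Without E9.5 cells of those 3 clusters the log2 difference turned to 1.50 in all kept cells, 2.49 in mural-gated cells and 1.10 in other cells, and was 2.36 in endothelial-gated cells. In mesenchyme-gated cells this was not run, since E9.5 section 1 then has no such cell. Without areas of low Gnas the endothelial difference turned to -0.022. Leaving out each E9.5 section in turn gave differences, with no test, of -1.75 to -0.06 in all kept cells, -0.19 to 1.15 in endothelial-gated, -2.32 to -0.29 in mural-gated, -4.33 to -1.26 in mesenchyme-gated and -1.67 to -0.23 in other cells, and 1.76 to 2.23 for the interaction. The interaction, from which no test is drawn because it uses the levels that chose the gene, was 2.11 with the looser gate of 2 counts over 2 genes. The causes of these changes were not tested. No paired analysis was possible because E15.5 has 1 section and the region numbers of the labels tie no section of one stage to one of the other.

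The number of genes called changed more. In all kept cells it was 27 with upper-quartile scaling, 9 with counts per cell volume, 23 without areas of low Gnas and 15 without the 3 clusters. In other cells it was 26, 11 and 24 under the first 3 of these. Called in endothelial-gated cells were 2 genes without areas of low Gnas. In mural-gated cells upper-quartile scaling called 4, DESeq2 5, a limit on cell volume 2 and leaving out areas of low Gnas 4, and in mesenchyme-gated cells upper-quartile scaling called 3 and DESeq2 1. For the interaction the gate of 5 counts over 3 genes called 15, the looser gate 9, leaving out cells of several gates 0, a minimum of 20 panel counts 5, leaving out the 3 clusters 0, upper-quartile scaling 5 and DESeq2 0.

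The ratio of endothelial-gated to other cells moved with its definition. At E15.5 it was 13.6 per cell, 9.47 per cell volume, 6.47 with H19 out of the total, 7.47 with the mean blank code subtracted, 8.41 with the gate of 5 counts and 5.48 with that of 2. For E9.5 section 1 it was 5.21 per cell and 3.90 without cells of several gates, and rested on 0 counts with the gate of 5 counts, in 1 cell whose level has an upper limit of 16844 CPM, and without the 3 clusters, in 9 cells with one of 3682, so that these values of 0 say little of the ratio. For E9.5 section 2 it was 5.73 per cell, 3.84 per volume, 2.10 with the gate of 5 counts, 2.20 with that of 2, 2.97 without cells of several gates, 1.74 without areas of low Gnas and 5.12 without the 3 clusters. The arterial ratio at E15.5 was 1.69 with lists at 5 counts and 1.37 with cells of several lists given to 1, where the lymphatic ratio was 0.163 and the venous one fell below 1, at 0.979. With the gate of 5 counts the venous ratio was 0.915 and the lung ratio 1.01. Cells under 20 over cells beyond 40 micrometres from gated cells stood at 1.52 at E15.5 and 1.17 in E9.5 section 2 when distance was taken to the looser gate.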
